A study of Mus musculus with 21 samples.

Results

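The 10 circadian clock genes Arntl, Clock, Per1, Per2, Per3, Cry1, Cry2, Nr1d1, Nr1d2 and Dbp were compared between p16-expressing and control keratinocytes of mouse skin. They were taken by gene symbol from a table of 22050 entries, and all 10 were among the 12782 genes that were tested, those whose normalized read counts averaged 1 or more. In the circadian clock, CLOCK and BMAL1 (the protein of Arntl) form an activator that binds E-box sequences and switches on the Per and Cry genes, whose proteins then repress the activator, so that transcript levels rise and fall once a day. The same activator drives Nr1d1 and Nr1d2, which encode the REV-ERB nuclear receptors that repress Arntl, and Dbp, whose protein activates other genes through D-box sequences. Arntl therefore peaks when Dbp and the Nr1d genes are low, and in skin the clock is known to time cell division and metabolism of keratinocytes.

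Keratinocytes that expressed GFP were sorted from dorsal skin and profiled by mRNA-seq. The p16 group (replicates 1 to 4) had the genotype K5-rtTA/tet-GFP/tet-p16, and the control group (replicates 1 to 4) had the genotype K5-rtTA/tet-GFP. All mice, controls included, had a mixed strain background (FVB, C57Bl and 129sv), carried the K5-rtTA and tet-GFP transgenes and received doxycycline from 3 weeks of age for 6 months, and per the study's methods the mice of such long inductions were male and p16 and control mice were raised and treated together. Doxycycline switches on GFP, and in the p16 mice also a human p16 gene, in cells in which the keratin 5 promoter is active, mainly basal epidermal cells and hair follicle. Cells positive for CD140a, CD45 or CD31 were gated out before the sort, and about 80000 cells of 3 mice were pooled in each sample, so that each value is an average over mice and cells. The mice lived in a light-dark cycle, and the skin was kept in trypsin overnight in the cold before the cells were collected. The hour at which each sample was taken is not given in the sources used here, and the position of each sample in the daily cycle is therefore unknown. The 13 samples of a further profiling were not analysed here.

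Values are reads per gene after scaling for the depth of the library, called normalized read counts below. The libraries held between 1760953 and 3414362 reads on genes in control samples and between 2884544 and 3202975 in p16 samples. The human p16 transgene (hsCDKN2A) had a normalized read count of 0.7 to 2.5 in the controls and of 10.1, 16 and 7.4 in p16 replicates 2 to 4, but 1.6, from 2 reads, in the library labelled p16 replicate 1, which is therefore named by its label and left out in turn below. The values of p16 replicates 2 to 4 rested on 13, 18 and 9 reads (limma adjusted p = 0.0952 between the groups). The GFP transgene (EGFP), used for the sort, had 4152.0 to 5912.6 in control and 3161.8 to 3978.8 in p16 samples (limma adjusted p = 0.0167). Of the hair-follicle stem cell markers, 7 of 10 were called lower in p16 samples (an adjusted p under 0.05 in limma), and their summed normalized read count was 3618 to 4533 in control and 1683 to 3166 in p16 samples. Over all tested genes, 1.24% were called higher and 2.61% lower. Of the sebaceous gland markers, 6 of 8 were lower (1441 to 1654 against 486.1 to 740.2), and of the basal keratinocyte markers 1 of 7 (Krt15). Among markers of cells that the gates should remove or that are rare in epidermis, 2 of 7 melanocyte markers tested were lower (summed normalized read count 138.5 to 549 in control and 51.7 to 148.4 in p16 samples) and 1 of 5 fibroblast markers tested was higher, while 0 of 5 T cell, 0 of 5 Langerhans and myeloid cell and 0 of 2 endothelial markers were called. The fibroblast marker called was Dcn (2.6 to 10.7 in control and 36.2 to 203.0 in p16 samples), which made up most of the summed fibroblast level (10.8 to 27.3 and 42.8 to 221.6), whereas Col1a2 was lower without overlap (4.2 to 17.8 and 1.6 to 3.3, limma adjusted p = 0.0571) and Lum was at 0 in every sample. The defining markers of basal keratinocytes were abundant in all samples, with a sum of 31881 to 52882 in controls and 32056 to 36675 in p16 samples. Reads of Krt5 (11761 to 12279 a sample) and Krt14 (10186 to 12146) hardly differed between libraries of unlike depth. Their normalized read counts therefore largely follow the scaling, and this sum cannot compare the groups. The reason was not tested. Of 8 differentiated keratinocyte markers, Lor was called higher (limma adjusted p = 0.00951) and Sbsn (0.00905) and Ivl (0.0215) lower, with a summed level of 6708 to 9150 in controls and 7022 to 10385 in p16 samples. In sorted bulk samples, fewer cells of a type and less RNA per cell cannot be told apart. The part of these shifts in cell type markers in the results below was not tested.

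The regulatory sequences that the clock proteins bind were searched for in the 250 bases before each RefSeq transcription start (build GRCm38.p6), since the clock regulators that differed most between the groups encode D-box and E-box factors. Of the 10 genes, 9 had a promoter entry, and Per2 had none. A gene was counted if any of its promoters matched, and Arntl, Clock and Per1 had several. The percentages below count single promoters, so they are not a like measure. On either strand, the E-box CACGTG was found in 2 of the 9 genes (Per1 and Cry1) and in 6.02% of all 32851 promoters. The E-box variant CACGTT, which reads AACGTG on the other strand, was found in 3 (Cry1, Cry2 and Nr1d1) and in 3.85% of all promoters. The D-box, searched as TTATGTAA or TTACGTAA, was found in Per3 and in 0.931% of all promoters. The element of ROR and REV-ERB receptors, searched as TAGGTCA or TGGGTCA, was in 0 of the 9 and in 5.38% of all promoters. Bases from the start onward and other spellings were not searched, so the lack of a match does not show that a gene lacks the element. The promoters below show these matches in capitals and are read in the direction of transcription. That of Per3 (chr4:151044666-151044915, minus strand, no annotated exon) holds a pair of D-box matches, which begin 205 and 158 bases before the start. That of Per1 (chr11:69098699-69098948, plus strand) precedes 1 of its start sites and lies inside the annotated gene, with 1 exonic base and an E-box 166 bases before the start. That of Cry1 (chr10:85185055-85185304, minus strand, 10 exonic bases) has the variant at 79 and the E-box at 60 bases. That of Nr1d1 (chr11:98775378-98775627, minus strand, no annotated exon) has the variant 28 bases before the start.
Per3 promoter: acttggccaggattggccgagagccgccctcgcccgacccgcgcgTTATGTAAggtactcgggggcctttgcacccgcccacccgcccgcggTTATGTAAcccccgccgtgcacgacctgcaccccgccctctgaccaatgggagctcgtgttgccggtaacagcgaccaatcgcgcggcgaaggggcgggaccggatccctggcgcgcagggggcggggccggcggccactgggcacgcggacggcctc
Per1 promoter: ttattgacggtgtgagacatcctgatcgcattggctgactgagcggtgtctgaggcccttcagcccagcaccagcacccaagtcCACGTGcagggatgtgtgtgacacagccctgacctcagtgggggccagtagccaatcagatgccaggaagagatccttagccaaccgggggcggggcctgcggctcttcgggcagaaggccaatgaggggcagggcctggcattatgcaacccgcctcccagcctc
Cry1 promoter: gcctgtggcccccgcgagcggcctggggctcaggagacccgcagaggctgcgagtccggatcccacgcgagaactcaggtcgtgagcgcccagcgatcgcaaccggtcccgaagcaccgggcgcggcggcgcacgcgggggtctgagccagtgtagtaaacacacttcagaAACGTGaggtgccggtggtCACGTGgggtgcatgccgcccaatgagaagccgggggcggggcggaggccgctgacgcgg
Nr1d1 promoter: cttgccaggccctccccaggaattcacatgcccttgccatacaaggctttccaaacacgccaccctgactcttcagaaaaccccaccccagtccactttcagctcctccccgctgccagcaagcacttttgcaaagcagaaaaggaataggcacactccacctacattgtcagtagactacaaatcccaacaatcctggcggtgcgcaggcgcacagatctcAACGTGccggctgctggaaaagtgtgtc
A match describes these letters only and does not show that a factor was bound in these cells.

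None of the 10 clock genes passed the test between p16 and control cells when the samples were taken as unpaired. With limma and Benjamini-Hochberg adjustment over all genes, 0 of the 10 were called higher and 0 lower, also without the library labelled p16 replicate 1, where over all 8 samples 1.24% of all tested genes were called higher and 2.61% lower. Count tests on the recovered reads also called 0 of the 10 in either direction, with a background of 1.5% higher and 2.79% lower in edgeR and of 1.52% and 2.85% in DESeq2. With replicate number as a block, Nr1d1 (limma adjusted p = 0.0164) and Dbp (0.0408) were called higher, among 216 genes called higher. Whether the numbers pair the samples is not given in the sources used here. At an unadjusted p under 0.05, 4 of the 10 (Nr1d1, Dbp, Per1 and Per2) were higher, beside 7.02% of all tested genes, and 0 were lower, beside 8.93%. Mean log2 values were higher in p16 cells for 7 genes and lower for Arntl, Clock and Cry1, and the median log2 fold change was 0.29 over the 10 genes and 0.00 over all tested genes. For 1 of the 10 (Dbp) the p16 samples were all above the controls, as for 4.19% of all tested genes, and for 0 they were all below, as for 5.63%.

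**Figure D1:**
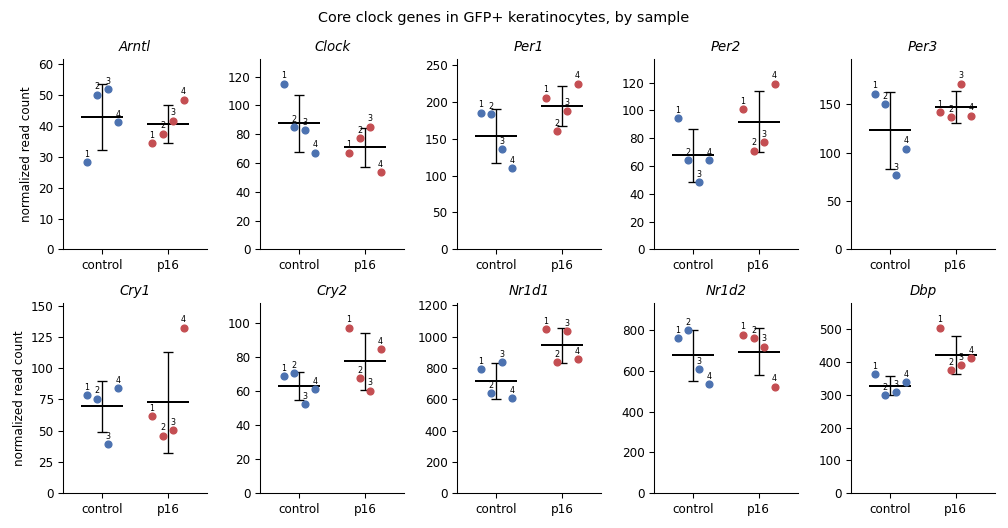
Normalized read count (y axis, from 0, a separate scale for each gene) of the 10 clock genes in 4 control (blue) and 4 p16 (red) samples, with numbers for replicates, horizontal lines for group means and bars for the SD. Only for Dbp do the groups not overlap, and for Cry1 a single p16 sample, replicate 4 with 132.4, stands above the other 7.

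Nr1d1 and Dbp, both direct targets of the CLOCK and BMAL1 activator, had the lowest p-values of the 10. Dbp (ENSMUSG00000059824, chromosome 7 of GRCm38, 45705088 to 45710203) had normalized read counts of 362.0, 299.0, 308.2 and 339.2 in control replicates 1 to 4 and of 504.5, 375.5, 389.2 and 411.9 in p16 replicates 1 to 4. The lowest p16 sample was just above the highest control sample, and the library labelled p16 replicate 1 was far above the rest. The means were 327 ± 28.9 and 420 ± 58.1 (SD, n = 4 each), a 1.28-fold difference and a log2 fold change of 0.36 (standard error 0.11, 95% confidence interval 0.12 to 0.59). The exact two-sided permutation test gave p = 0.0286, the smallest that 4 samples against 4 allow, and limma gave an adjusted p of 0.104 over all genes tested. Leaving out the library labelled p16 replicate 1 gave a log2 fold change of 0.26 and an adjusted p of 0.323 in limma.

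Nr1d1 (ENSMUSG00000020889, chromosome 11, 98767932 to 98775333) encodes REV-ERB alpha. Its normalized read counts were 790.1, 639.1, 838.5 and 605.0 in controls and 1048.2, 837.8, 1035.6 and 855.1 in p16 samples. The groups met at a single point, where p16 replicate 2 lay under control replicate 3, and 3 of 4 p16 samples exceeded all controls. The means were 718 ± 114 and 944 ± 113 (SD, n = 4 each), which differed by 0.40 on the log2 scale (standard error 0.12, 95% confidence interval 0.14 to 0.66, limma adjusted p = 0.0943, exact permutation p = 0.0571). Without the library labelled p16 replicate 1 it was 0.35 (limma adjusted p = 0.272). The last 1075 bases of Nr1d1 overlap Thra on the opposite strand (98767932 to 98769006), and the last 737 bases of Dbp overlap Sphk2 (45709467 to 45710203). Whether the counting used strand is not given in the sources used here, so reads of these partners cannot be told apart if it did not. The partner genes had log2 fold changes of 0.15 (Thra, limma adjusted p = 0.529) and -0.08 (Sphk2, limma adjusted p = 0.784).

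Nr1d2 (ENSMUSG00000021775, chromosome 14, 18204054 to 18239127) encodes REV-ERB beta. It had 761.1, 799.5, 608.0 and 534.7 in controls and 778.0, 761.2, 718.2 and 522.9 in p16 samples. In both groups replicate 4 was the lowest, and the p16 values lay within or just under the control range. The log2 fold change was 0.04 (95% confidence interval -0.27 to 0.36, limma adjusted p = 0.933). Whether Nr1d1 and Nr1d2 differed in their change was not tested.

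The Per genes encode the period proteins, which carry the negative arm of the loop. Per1 (ENSMUSG00000020893, chromosome 11, 69095217 to 69109960) had normalized read counts of 185.5, 183.5, 136.1 and 110.0 in controls and of 205.5, 160.1, 188.0 and 224.5 in p16 samples. All p16 samples but replicate 2 were above all controls, and the log2 fold change amounted to 0.36 (standard error 0.17, 95% confidence interval 0.00 to 0.71, limma adjusted p = 0.304). Per2 (ENSMUSG00000055866, chromosome 1, 91415982 to 91459324) had 94.2, 64.2, 48.4 and 64.2 in controls and 100.7, 71.0, 77.1 and 119.2 in p16 samples. Control replicate 1 reached into the p16 range, while the other 3 controls were below every p16 sample, and the log2 fold change was 0.45 (standard error 0.21, 95% confidence interval 0.00 to 0.89, limma adjusted p = 0.310). Per3 (ENSMUSG00000028957, chromosome 4, 151003652 to 151044665), whose promoter holds the D-box pair shown above, had 161.0, 150.2, 76.8 and 103.9 in controls and 141.5, 136.6, 171.1 and 138.1 in p16 samples. Here the controls were split, with replicates 1 and 2 about level with the p16 samples and replicates 3 and 4 below them. The log2 fold change of Per3 was 0.31 (95% confidence interval -0.11 to 0.73, limma adjusted p = 0.494), and it was 0.03 without replicate 3 of both groups, whose labels word the library protocol differently. Per3 lies within Camta1 on the same strand, which changed by -0.15 on the log2 scale (limma adjusted p = 0.752).

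The cryptochromes, which repress the activator together with the Per proteins, did not show a shift beyond the spread between samples. Cry1 (ENSMUSG00000020038, chromosome 10, 85131700 to 85185064) had normalized read counts of 78.6, 75.7, 39.3 and 84.0 in controls and of 61.6, 46.1, 50.5 and 132.4 in p16 samples. The p16 group held the highest value of all and also 3 values lower than 3 of the controls. Its log2 fold change of -0.01 (95% confidence interval -0.66 to 0.64, limma adjusted p = 0.992) became -0.34 without p16 replicate 4 and 0.08 in edgeR and DESeq2, so no direction was set. Cry2 (ENSMUSG00000068742, chromosome 2, 92403646 to 92434043) had 69.0, 70.6, 52.6 and 61.1 in controls and 97.5, 67.9, 60.3 and 84.7 in p16 samples. The library labelled p16 replicate 1 and p16 replicate 4 were above all controls and the others were among them (log2 fold change 0.27, 95% confidence interval -0.09 to 0.64, limma adjusted p = 0.486).

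The activator genes rested on few reads, 27 to 62 a sample for Arntl and 44 to 155 for Clock, which limits the precision of their values. Read numbers were about as low as for Clock in Per2 (42 to 145), Cry1 (47 to 161) and Cry2 (40 to 122). Arntl (ENSMUSG00000055116, chromosome 7, 113207465 to 113314126) had 28.2, 50.1, 51.8 and 41.3 in controls and 34.4, 37.5, 41.7 and 48.5 in p16 samples. The p16 values all lay within the control range (log2 fold change -0.05, 95% confidence interval -0.50 to 0.40, limma adjusted p = 0.944). Clock (ENSMUSG00000029238, chromosome 5, 76209868 to 76304792) had 115.0, 84.7, 82.7 and 67.2 in controls and 67.2, 77.3, 85.1 and 53.4 in p16 samples. Control replicate 1 was the highest and p16 replicate 4 the lowest, with the rest mixed (log2 fold change -0.30, 95% confidence interval -0.69 to 0.10, limma adjusted p = 0.483).

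**Figure D2:**
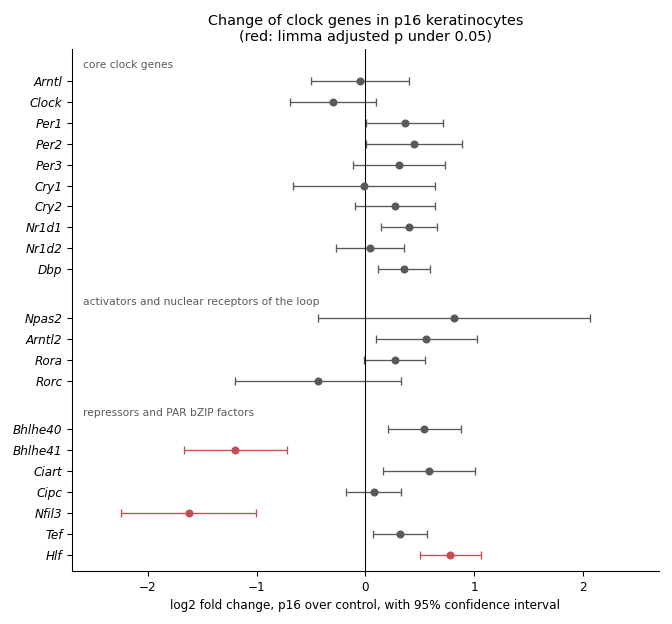
Log2 fold change of p16 over control (x axis) with its 95% confidence interval for the 10 clock genes, 4 further activators and nuclear receptors, and 7 repressors and PAR bZIP factors, where red marks a limma adjusted p under 0.05. The 10 clock genes lie between -0.30 and 0.45, while Hlf (0.78), Bhlhe41 (-1.20) and Nfil3 (-1.63) lie apart from 0.

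Outside the 10 genes, 3 factors that act at E-boxes or D-boxes changed in p16 cells. Of 7 repressors and PAR bZIP factors tested, 1 rose (Hlf), beside 1.24% of all tested genes, and 2 fell (Nfil3 and Bhlhe41), beside 2.61%. Hlf (chromosome 11, 90336536 to 90390895), which encodes a D-box activator closely related to DBP, had normalized read counts of 287.1, 370.9, 251.4 and 279.6 in controls and of 596.5, 420.8, 496.5 and 527.9 in p16 samples. Every p16 sample was above every control, and the change was 1.72-fold (log2 fold change 0.78, standard error 0.13, limma adjusted p = 0.00373, exact permutation p = 0.0286). Nfil3 (chromosome 13, 52967209 to 52981073) encodes a repressor that competes for D-boxes. It had 15.6, 15.4, 22.6 and 13.8 in controls and 4.0, 4.7, 6.2 and 4.1 in p16 samples, from 5 to 27 reads a sample. All p16 samples were far below the controls, a 3.55-fold decrease of the mean (log2 fold change -1.63, standard error 0.29, limma adjusted p = 0.00532, exact permutation p = 0.0286). Bhlhe41 (chromosome 6, 145858243 to 145865558) encodes DEC2, a repressor acting at E-boxes. It had 133.5, 77.0, 59.3 and 65.7 in controls and 30.4, 36.7, 35.5 and 34.5 in p16 samples. The p16 samples were tightly grouped under the lowest control (log2 fold change -1.20, standard error 0.22, limma adjusted p = 0.00710, exact permutation p = 0.0286). When each of the 8 samples was left out in turn, these 3 genes always passed, and in the fit without the library labelled p16 replicate 1 their limma adjusted p was 0.0190 for Hlf, 0.0211 for Nfil3 and 0.0285 for Bhlhe41. Hair-follicle and sebaceous gland markers fell in the same samples, as given above.

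**Figure D3:**
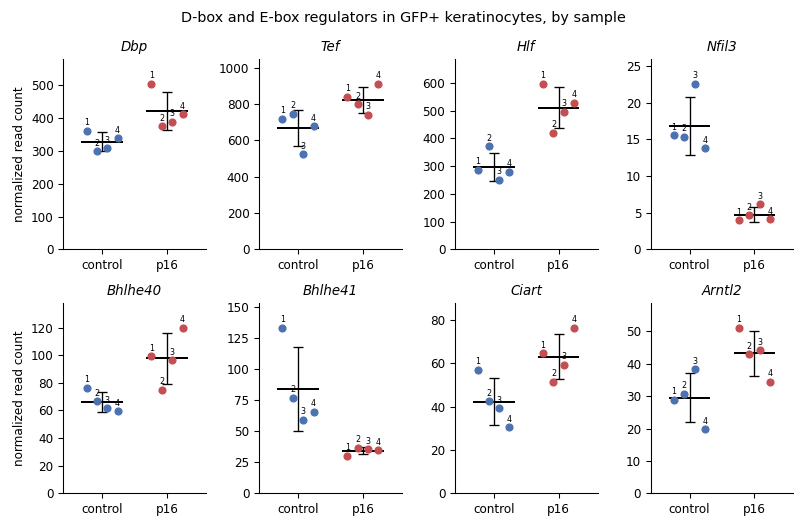
Normalized read count (y axis, from 0, a separate scale for each gene) of Dbp, Tef, Hlf, Nfil3, Bhlhe40, Bhlhe41, Ciart and Arntl2 in 4 control (blue) and 4 p16 (red) samples, with numbers for replicates, lines for group means and bars for the SD. Hlf lies higher and Nfil3 and Bhlhe41 lower in every p16 sample than in every control, while the groups of Tef, Bhlhe40, Ciart and Arntl2 touch.

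Other clock regulators, named after their values were seen, did not pass the threshold. Bhlhe40, the gene of DEC1 and paralog of Bhlhe41, had 76.4, 66.7, 61.8 and 59.6 in controls and 99.1, 75.0, 96.6 and 120.0 in p16 samples (log2 fold change 0.54, limma adjusted p = 0.0778), and it passed only without p16 replicate 2 (0.0312). The log2 fold change was 0.31 for the D-box activator Tef (limma adjusted p = 0.183), and for Ciart, which encodes a repressor of the CLOCK and BMAL1 activator, it was 0.58 (limma adjusted p = 0.143). Ciart overlaps an antisense transcript along its whole length. Of the further activators and nuclear receptors, 4 of 5 were tested and 0 were called in either direction. At an unadjusted p under 0.05, 1 was higher, beside 7.02% of all tested genes. This was Arntl2, a paralog of Arntl (log2 fold change 0.56, limma adjusted p = 0.209). The largest log2 fold change in that list was that of Npas2, a paralog of Clock (0.81, limma adjusted p = 0.562), which had 0 to 9 reads a sample.

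The enzymes and partners that modify PER and CRY proteins gave no call. Of 14 kinase, ligase and partner genes tested, 0 were called and 0 had an unadjusted p under 0.05 in either direction, and their median log2 fold change was 0.00. Timeless had the largest of them, -0.37 (limma adjusted p = 0.563). Of 14 genes known as rhythmic outputs of the clock, 0 were called higher, beside 1.24% of all tested genes, and 2 lower (Avpr1a and Slc16a1), beside 2.61%. At an unadjusted p under 0.05, 0 were higher (7.02% of all tested genes) and 7 lower (8.93%), with a median log2 fold change of -0.34. For 0 the p16 samples were all above the controls (4.19% of all tested genes), and for 5 all below (5.63%). Noct was among the latter, with 850.9 to 1267.8 in control and 687.6 to 806.6 in p16 samples. Its adjusted p was 0.0522 in limma, 0.0433 in edgeR and 0.0109 in DESeq2. Avpr1a, the gene of a vasopressin receptor, had 97.2, 104.0, 76.8 and 146.7 in controls and 2.4, 17.2, 15.1 and 9.9 in p16 samples. This is 9.52-fold less on average, with no overlap (log2 fold change -3.35, standard error 0.42, limma adjusted p = 0.000364). Like Ciart, Avpr1a overlaps an antisense transcript along its whole length. Slc16a1, which encodes a lactate transporter, had 72.7, 53.9, 93.5 and 76.4 in controls and 33.6, 47.6, 47.0 and 47.7 in p16 samples (log2 fold change -0.73, limma adjusted p = 0.0463). It passed in 2 of the 8 fits with a sample left out and not in the one without the library labelled p16 replicate 1 (limma adjusted p = 0.151). Genes that answer to stress hormones and handling gave 0 calls between the groups, with 9 glucocorticoid-induced and 17 immediate early genes tested. At an unadjusted p under 0.05, 0 and 2 of them were lower (8.93% of all tested genes) and 0 and 0 higher (7.02%). Single samples did differ within groups, and not in 1 order. Tsc22d3 was 546.7 in control replicate 1 (215.4 to 356.8 in the other controls) and 573.1 in p16 replicate 4 (245.2 to 296.6 in the others). Fkbp5 was highest in control replicate 3 (174.6) and p16 replicate 2 (181.1).

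Samples of a group differed among themselves in their clock genes. The SD of log2 values within groups had a median of 0.30 over the 10 genes, against 0.22 over the 10431 tested genes whose normalized read counts averaged 10 or more, and 8 of the 10 were above the latter value. Cry1 varied most, with an SD of 0.60 that 14.2% of all tested genes exceeded, and a range of 2.14-fold among controls and 2.87-fold among p16 samples. Dbp varied least, with an SD of 0.16 that 76.3% of tested genes exceeded. Part of such an SD is counting error, since the variance was 2.26 times that expected from counting reads for Arntl and 2.77 times for Cry2, but 16.1 times for Nr1d1, 17.0 times for Cry1 and 21.9 times for Nr1d2.

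**Figure D4:**
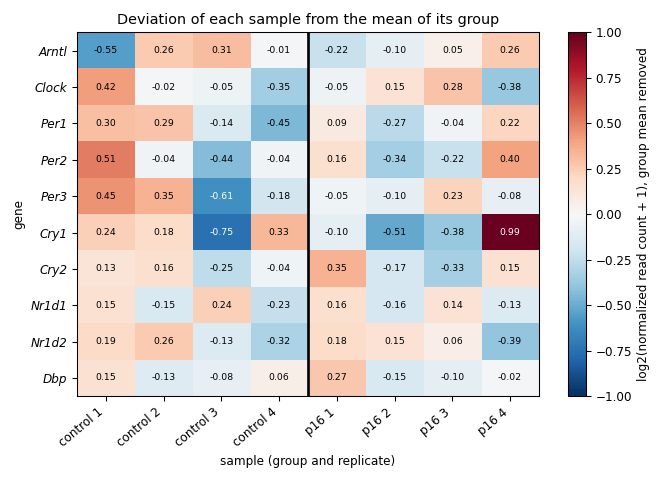
Deviation of each sample (x axis) from its group mean, in log2 of the normalized read count plus 1, for the 10 clock genes (y axis), where red is above and blue below the mean. Control replicate 1 combines the lowest Arntl of its group (-0.55) with values above the mean for all 9 others, and p16 replicate 4 combines high Cry1 (0.99) with low Clock (-0.38) and Nr1d2 (-0.39).

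Control replicate 1 stood apart from the other controls. It had the lowest Arntl and the highest Per1, Per2, Per3 and Dbp, and 6 of 6 activator targets (the Per genes, the Nr1d genes and Dbp) were above the control mean. Clock (0.42, the highest of the controls), Cry1 (0.24) and Cry2 (0.13) were above it as well, so every other clock gene was high there. This library held the most reads (3414362). The difference between Arntl and the mean of the 6 targets, each as log2 deviation from the group mean, was -0.84 in control replicate 1, against 0.16, 0.50 and 0.18 in control replicates 2 to 4. In p16 samples it was -0.35 in the library labelled p16 replicate 1, which had the lowest Arntl and 5 of 6 targets above the mean of its group, and 0.05, 0.04 and 0.27 in replicates 2 to 4. Both groups thus held 1 sample with low Arntl and high targets for its group. Deviations sum to 0 within a group, so 1 low sample places the others near or above 0 on average. They cannot compare levels between the groups. Without removal of group means, the difference was -3.33, -2.32, -1.98 and -2.31 in control replicates 1 to 4. In p16 replicates 1 to 4 it was -3.21, -2.81, -2.82 and -2.59, all below control replicates 2 to 4. This comparison between groups was not tested. Replicate 4 of both groups had low Clock and low Nr1d2 and the highest Cry1. Across the 8 samples, with group means removed, Pearson's r was -0.64 between Arntl and Dbp, 0.81 between Per2 and Cry1 and 0.76 between Clock and Nr1d2. These are descriptions over 8 points that share a library and its size factor within each point, and 2 libraries, control replicate 4 and control replicate 2, were shallower than the rest. A difference in the hour of collection, in cell composition or in handling between samples was not tested.

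The genes whose pattern over the 8 samples, group means removed, was most like that of Dbp were Skint6 (Pearson's r = 0.99), Epgn (0.99), Sft2d3 (0.94), Mrpl33 (0.93) and Csrnp2 (0.93) among 10430 genes. Among the other 9 of the 10 clock genes, Cry2 ranked highest in likeness to Dbp, at place 286 (r = 0.68), followed by Per2 at 419 (r = 0.63) and Nr1d1 at 1942 (r = 0.34), while Arntl was at 10067. Most like Arntl were Poldip2 (0.97), Polr2m (0.97), Fem1a (0.97), Fam83g (0.96) and Tgm3 (0.96), and Dbp ranked 9903 and Clock 9657 of 10430 (r = -0.59 for Clock). With so many genes and 8 points, high values of r at the top of such a ranking are a description of these libraries.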

How the data were processed

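Sorted GFP+ keratinocytes were profiled by mRNA-seq. Per the study's methods, the authors prepared libraries by CEL-Seq2 in an adapted form, used Cutadapt to trim the reads and Tophat2 to align them to GRCm38, and the submitters' processing notes also name HTSeq and DESeq2. The authors deposited signal values, which are reads on each gene over a size factor of the sample, rounded to 1 decimal. They were whole multiples of the value of 1 read, within 0.05 on the scale of the deposited values, for at least 99.97% of the values, so that reads were recovered. The authors also deposited group means and columns of their own comparison (a test score and p-values), which were not used. The labels describe library preparation in other words for replicate 3 of both groups. The column names fit samples of either profiling, and were taken as the first because the labels of the second name another file. The 10 genes and the gene lists were chosen with earlier results of these data known.

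Groups were compared with limma 3.58.1 (trend; R 4.3.3). Values were taken as log2(normalized value + 1), a scale that understates the change of low genes, and tested for the 12782 genes with a mean of at least 1, with Benjamini-Hochberg adjustment over all of them and without a replicate block. Alternatives were edgeR 4.0.16 (quasi-likelihood) and DESeq2 1.42.0 on the recovered reads, pseudocounts of 0.5 and 5, other filters, TMM factors, a replicate block, samples left out and, added after the data were seen, scaling by total reads and edgeR with the block. Single genes also had an exact two-sided permutation test. Samples are separate pools of mice from several experiments, but which experiment each came from is not given in the sources used here, so that an experiment could not be entered as a term. Named were the 10 genes, the called genes and the largest change of each list, and the 5 genes most like Dbp and Arntl. Others were named after their values were seen. Scripts were tested on simulated data. Gene coordinates follow GENCODE M21 (GRCm38).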

Additional observations from a re-analysis of the deposited data

Results flagged for a closer look

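Of 34 groups of 4 samples, 2 held a sample far from the others by Dixon's test at the 95% level, and chance flags about 1 in 20. Per3 in p16 replicate 3 (171.1, against 136.6 to 141.5 in the other p16 samples) had a gap of 0.858 of the range of its group. Slc16a1 in the library labelled p16 replicate 1 (33.6, against 47.0 to 47.7) had one of 0.95.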

How the results depend on the processing

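Hlf, Nfil3, Bhlhe41 and Avpr1a passed the adjusted threshold in all 19 other settings with the same direction. The 10 clock genes stayed without a call in 17 of 19, and 7 of them kept the direction of the log2 fold change in all 19. With a replicate block, 2 were called higher, Nr1d1 (0.40, limma adjusted p = 0.0164) and Dbp (0.36, limma adjusted p = 0.0408), and in edgeR with the replicate block also 2 (0.40, adjusted p = 0.0182, and 0.36, adjusted p = 0.0410). The replicate numbers were not taken to pair the samples, since the labels do not state a pairing. Deviations of same-numbered samples had correlations of 0.11, 0.02, 0.06 and 0.18, of which not all exceeded 0.1, and different numbers gave -0.16 to 0.13. Deviations sum to 0 within a group, so such correlations lie around 0 and cannot decide whether the samples were paired. Control replicates 1, 3 and 4 correlated best with the p16 sample of their own number, and control replicate 2 with p16 replicate 1 (0.13). The labels also word the library protocol differently for replicate 3 of both groups. The block gave 216 genes higher and 392 lower. The log2 fold change reversed for Arntl without replicate 3 of both groups (0.032) and with single samples left out (-0.24 to 0.049), for Nr1d2 in the same settings (-0.024, and -0.064 to 0.17), and for Cry1 in edgeR (0.080), in DESeq2 (0.077), scaled by total reads (0.023) and with single samples left out (-0.34 to 0.16). The cause was not tested.

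The 159 genes called higher and 334 lower became 66 and 157 without replicate 3 of both groups. With single samples left out they ranged from 69 to 196 and from 177 to 343, the fewest higher without the library labelled p16 replicate 1 (192 lower), followed by control replicate 1 (86 and 177) and p16 replicate 3 (99 and 247). Of the repressors, 1 to 2 were called higher with single samples left out (2 without p16 replicate 2). Of the rhythmic outputs, 1 to 3 were called lower with single samples left out (1 without control replicate 1 or 4, the library labelled p16 replicate 1 or p16 replicate 3), 1 with no filter on low values, scaled by total reads or without replicate 3 of both groups, and 4 with either replicate block. Between 7 and 8 of the 10 genes had an SD above the median of genes in the other settings. Scaling moved the median log2 fold change of all genes by at most 0.03. Depth limits genes with few reads, such as Npas2 (0 to 9 a sample), Nfil3 (5 to 27) and Arntl (27 to 62), and the 95% confidence interval of the log2 fold change of Cry1 spans -0.66 to 0.64.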
